A study of Homo sapiens with 30 samples.

Results

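TERF2IP, YY1, RPRD2 and CCDC62 are 4 protein-coding genes whose transcripts were far lower after transfection of the antisense oligonucleotide ASO2 than of ASO10 in NGP or SK-N-BE(2)c neuroblastoma cells. They were chosen for that difference, by name and with no numeric threshold, from 68608 gene IDs in 3 tables. All 4 passed the filter on low values in every table, with 17309 genes tested in the IMR32 table, 14440 in that of NGP and 13556 in that of SK-N-BE(2)c. CCDC62 passed it in SK-N-BE(2)c only because of its level with ASO10. Values from NGP and SK-N-BE(2)c therefore describe the choice and carry no test for these genes. The rule of choice used no IMR32 values, and the genes were tested in that line. Earlier results of these data were known when the genes were chosen.

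The series asked what follows from targeting NESPR, a long non-coding RNA of adrenergic neuroblastoma cells, with 3 different ASOs. An ASO is a short synthetic strand that pairs with a complementary RNA, and its effects can include RNAs other than the intended one. IMR32, NGP and SK-N-BE(2)c are established human neuroblastoma lines, and every group was transfected at 100 nM by lipofection, controls included. IMR32 received ASO1, ASO2 or the negative control ASO (NCA), with 4 libraries each, and NGP and SK-N-BE(2)c received ASO2, ASO10 or NCA, with 3 libraries each, 30 libraries in all. ASO2 was thus the only NESPR-directed ASO used in all 3 lines, and ASO10 was not used in IMR32. Labels do not give the time of harvest, and they do not say whether replicates were separate cultures, so p-values measure only the spread between these libraries.

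Depth was similar across libraries, at 9412453 to 13949049 reads for IMR32, 11591178 to 13795561 for NGP and 11497829 to 15060356 for SK-N-BE(2)c, summed over genes (for 1 SK-N-BE(2)c control library the scale of the reads was not certain). More genes had a read with ASO10 than with ASO2 or NCA, without overlap. Their number was 23722 to 23934 against 21253 to 22030 in NGP, and 21518 to 21815 against 19235 to 20327 in SK-N-BE(2)c. The part of this difference in the results below was not tested. NESPR, the targeted RNA, is not reported here. The adrenergic markers PHOX2A, HAND2, GATA3, ISL1, TH, DBH and CHGA were detected in every library of each line, with TH low in IMR32 (20.1 to 33.0 normalized counts). The sum of these 7 markers was lower with either NESPR-directed ASO than with NCA, without overlap, in each line. In IMR32 it was 22094 to 23278 with ASO2, 21520 to 23304 with ASO1 and 24265 to 24958 with NCA. Its part in the results below was not tested. PTPRC, the defining gene of leukocytes, stayed at 4.72 normalized counts or fewer. The summed markers of other cells (PTPRC, PECAM1, COL1A1 and EPCAM, without PECAM1 outside IMR32) were higher with ASO2 than with NCA, at 818 to 981 against 645 to 723 in IMR32 and at 222 to 274 against 161 to 191 in NGP, with no overlap. Those of SK-N-BE(2)c were at 12.7 to 28.7 and 8.07 to 13.5, which overlapped. Most of the sum was the fibroblast gene COL1A1 in IMR32 (630.0 to 962) and in NGP (118 to 268). The summed mesenchymal markers (FN1, PRRX1, YAP1, SNAI2 and CD44) overlapped between ASO2 and NCA in each line. They were at 515 to 567 against 511 to 628 in IMR32 and at 653 to 722 against 622 to 698 in NGP. The part of all these markers in the results was not tested. IMR32 was scaled apart from the other 2 lines, so its levels are not set against theirs.

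Each gene has a different role. TERF2IP (ENSG00000166848) encodes RAP1, the subunit of the shelterin complex that binds telomeres through TERF2 and that also acts away from telomeres on gene expression. YY1 (ENSG00000100811) encodes a zinc finger factor that activates or represses transcription, binds the INO80 chromatin remodeller and joins enhancers to promoters. RPRD2 (ENSG00000163125) encodes a protein with a domain that docks on the C-terminal tail of RNA polymerase II, as do RPRD1A and RPRD1B. CCDC62 (ENSG00000130783) encodes a coiled-coil protein best known from testis and as a partner of estrogen receptors.

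The genes lie on different chromosomes (16, 14, 1 and 12 in the order above), all on the plus strand. Their longest coding transcripts in GENCODE release 29 measured 2118 bases for TERF2IP, 6697 for YY1, 7605 for RPRD2 and 3546 for CCDC62. Among 12047 tested coding genes, 22.0%, 84.9%, 89.1% and 50.1% had shorter ones, so the 4 do not share a class of transcript length. By gene span, 81.7%, 57.9%, 81.6% and 63.5% of these genes were shorter, in the same order. Transcript GC content ran from 43.4% in CCDC62 to 50.1% in TERF2IP.

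Promoters are shown because YY1 is itself a DNA-binding factor that was low in the same libraries as TERF2IP and RPRD2. The 250 bases upstream of the start sites, from RefSeq (GRCh38.p14, plus strand, 5′ to 3′), are printed below for the 3 genes that were low with ASO2 in both lines. Capitals mark matches to CCATNTT or ATGGCGG, both parts of the known YY1 motif, searched on both strands.
TERF2IP promoter, chr16:75647523-75647772: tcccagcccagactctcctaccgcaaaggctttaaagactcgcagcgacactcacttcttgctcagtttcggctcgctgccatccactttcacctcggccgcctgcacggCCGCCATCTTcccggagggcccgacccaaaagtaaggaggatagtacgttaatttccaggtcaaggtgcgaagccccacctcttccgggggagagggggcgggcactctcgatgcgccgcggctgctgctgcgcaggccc
RPRD2 promoter, chr1:150363897-150364146: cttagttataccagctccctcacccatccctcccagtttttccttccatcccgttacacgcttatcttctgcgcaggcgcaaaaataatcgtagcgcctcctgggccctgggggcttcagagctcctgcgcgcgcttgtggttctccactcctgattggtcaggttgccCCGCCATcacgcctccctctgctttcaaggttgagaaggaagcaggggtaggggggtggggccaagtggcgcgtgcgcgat
YY1 promoter, chr14:100238894-100239143: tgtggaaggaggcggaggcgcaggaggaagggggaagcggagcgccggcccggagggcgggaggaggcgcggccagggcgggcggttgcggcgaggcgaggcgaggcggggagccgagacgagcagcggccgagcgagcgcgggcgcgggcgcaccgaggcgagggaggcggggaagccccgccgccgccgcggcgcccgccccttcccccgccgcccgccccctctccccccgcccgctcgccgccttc
In the window from 250 bases before to 50 bases after the start, TERF2IP held ATGGCGG on the minus strand at -140 and CCATNTT on the plus strand at -137, and these matches overlap. KARS1 overlaps the 5′ end of TERF2IP on the other strand, so these matches cannot be assigned to TERF2IP alone. KARS1 was not called lower with ASO2 in any line (values below). RPRD2 held ATGGCGG on the minus strand at -81. Neither word was found in the windows of YY1 and CCDC62. Of 35116 RefSeq promoters of the same length, 5.55% held ATGGCGG and 15.6% held CCATNTT. None of the 4 held a TATAAA box, which 11.5% of promoters held. The YY1 window held 8 matches of the GC box GGGCGG, some of them overlapping, and was 82.7% G and C, more than 99.1% of promoters. GC content was 75.0% for CCDC62, 63.0% for TERF2IP and 57.0% for RPRD2. A match is a description of letters and not of binding.

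In NGP, TERF2IP stood at 613, 652 and 572 normalized counts in the 3 ASO2 libraries. It was at 2586, 2479 and 2608 with ASO10 and at 2119.7, 2246 and 2225 with NCA. The ASO2 libraries were thus far below both other groups, and the ASO10 libraries were all above the NCA libraries. SK-N-BE(2)c gave the same order, with 442, 472 and 414 for ASO2, 1885, 1970.0 and 1828 for ASO10 and 1528, 1601 and 1544 for NCA. On the log2(value + 1) scale, used for all fold changes here, TERF2IP with ASO2 against NCA was at -1.84 (SE 0.061) in NGP and at -1.81 (SE 0.065) in SK-N-BE(2)c. With ASO10 it differed from NCA by 0.22 and 0.28.

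YY1 with ASO2 was at 753, 782 and 748 in NGP and at 862, 818 and 878 in SK-N-BE(2)c. With ASO10 it was at 2985, 2893 and 2749.5 in NGP and at 3087, 2912 and 2958 in SK-N-BE(2)c. NCA libraries lay between, at 1793, 1758 and 1933 in NGP and at 2008, 1960.0 and 2167 in SK-N-BE(2)c. YY1 was therefore above its control level with ASO10, by 0.65 (NGP) and 0.55 (SK-N-BE(2)c) on the log2 scale, and below it with ASO2, at -1.26 in each line.

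RPRD2 with ASO2 stood at 1145, 1228 and 1062 in NGP and at 808, 797 and 795 in SK-N-BE(2)c. With ASO10 it was at 4317, 4245 and 4049 in NGP and at 3118, 3519 and 3279.5 in SK-N-BE(2)c. With NCA it was at 2397, 2413 and 2561 in NGP and at 1708, 1714 and 1678 in SK-N-BE(2)c. As for YY1, the NCA libraries lay between the ASO groups with no overlap. Its differences from NCA were -1.10 and -1.09 with ASO2 and 0.77 and 0.96 with ASO10, the NGP value first.

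CCDC62 had another pattern. In NGP it was at 255, 267 and 289 with ASO2, at 1837, 1757 and 1684 with ASO10 and at 732, 674 and 638 with NCA. There the difference from NCA was -1.33 (SE 0.075) with ASO2 and 1.37 (SE 0.075) with ASO10. In SK-N-BE(2)c it was near the lower limit of detection, at 3.31, 5.44 and 7.20 with ASO2 and at 4.19, 6.05 and 3.86 with NCA, and these groups overlapped. With ASO10 it was at 38.1, 48.1 and 40.4, a difference from NCA of 2.94 (SE 0.41; 1.98 with a pseudocount of 8), and that from ASO2 to NCA was 0.12 (SE 0.41). The description of a transcript lost with ASO2 thus does not hold for CCDC62 in SK-N-BE(2)c, where the gap between the ASOs came from a higher level with ASO10.

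**Figure D1:**
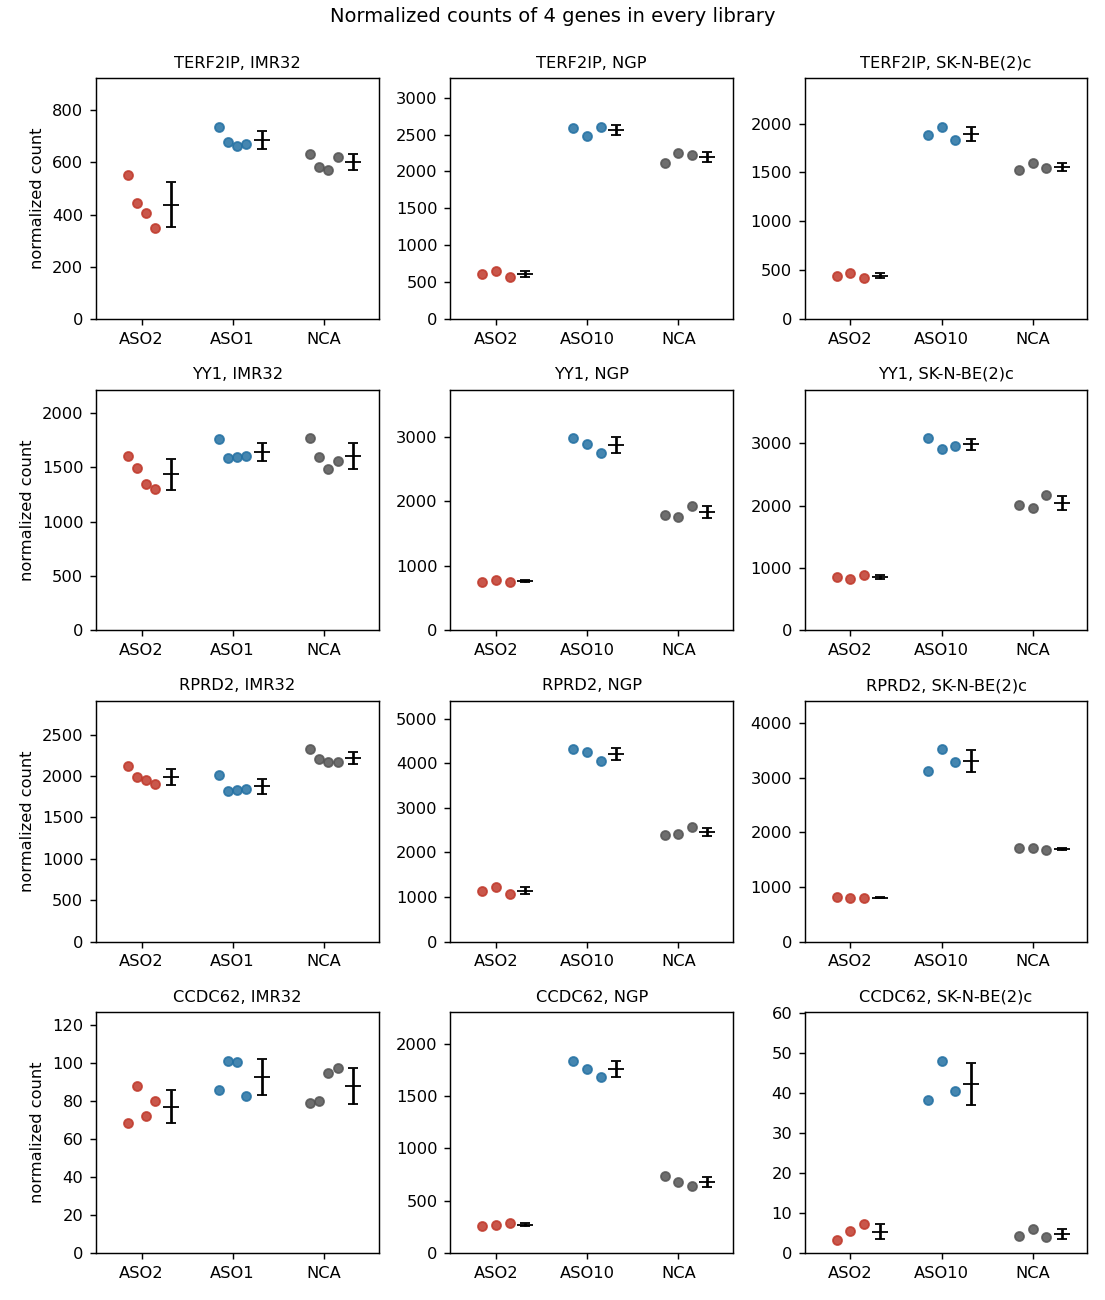
Normalized counts (y axis, from 0, a separate scale in each panel) of TERF2IP, YY1, RPRD2 and CCDC62 in every library (points) by ASO (x axis) for each of the 3 lines, with the group mean and SD beside the points. The ASO2 libraries sit below the ASO10 and NCA libraries in NGP and SK-N-BE(2)c, except for CCDC62 in SK-N-BE(2)c, and lie closer to the other groups in IMR32.

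The tables of NGP and of SK-N-BE(2)c were scaled jointly, so levels of a gene can be ordered over their 6 groups. For TERF2IP the order from the top was NGP with ASO10 (mean 2558 ± 69.1, SD, n = 3), NGP with NCA (2197 ± 67.9), SK-N-BE(2)c with ASO10 (1894 ± 71.4), SK-N-BE(2)c with NCA (1558 ± 38.5), NGP with ASO2 (612 ± 39.9) and SK-N-BE(2)c with ASO2 (443 ± 29.2). No neighbours in that order overlapped. For YY1 the ASO10 groups of SK-N-BE(2)c (2985 ± 90.5) and NGP (2876 ± 118) led and overlapped, followed by NCA and then ASO2. For RPRD2 the order was NGP above SK-N-BE(2)c within each treatment, with no overlap between neighbours. For CCDC62 every NGP group stood above every SK-N-BE(2)c group, and the NCA means were 681 ± 47.5 and 4.70 (3.86 to 6.05 over its libraries).

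These differences were large without being the largest in either line. Between ASO2 and ASO10, the log2 fold changes in NGP were -2.06 for TERF2IP, -1.92 for YY1, -1.88 for RPRD2 and -2.70 for CCDC62. Counted from the most negative of 14440 genes, they held ranks 330, 375, 395 and 155. In SK-N-BE(2)c they were -2.10, -1.81, -2.04 and -2.82, with ranks 294, 408, 315 and 137 of 13556. By limma's adjusted p under 0.05, 58.6% of all genes differed between these ASOs in NGP (28% lower with ASO2) and 65.4% in SK-N-BE(2)c (30.8% lower). In NGP the libraries of all 4 genes did not overlap between any of the 3 groups, which held for 62.4% of genes between ASO2 and NCA, 59.1% between ASO10 and NCA and 65% for ASO2 and ASO10. The same was true of SK-N-BE(2)c except for CCDC62 between ASO2 and NCA, and the shares of all genes were 69.3%, 64.7% and 68.2%. The rule used these contrasts, so nothing is read from the members' place in it.

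IMR32, whose values the rule of choice did not use, gave a measure of ASO2 in another line. TERF2IP was at 552, 443, 407 and 349.7 with ASO2, at 634, 583, 570.0 and 622 with NCA, and at 737, 679.9, 663 and 669 with ASO1. All 4 ASO2 libraries lay below all NCA libraries, and all 4 ASO1 libraries lay above them. TERF2IP fell with ASO2 against NCA (log2 fold change -0.48, SE 0.092, limma adjusted p 0.000573, exact two-sided permutation p 0.0286, the smallest that 4 against 4 libraries can give). It was also lower than with ASO1 (-0.67, limma adjusted p 2.95e-05, exact permutation p 0.0286), at rank 330 from the most negative of 17309 genes. Against NCA, ASO1 gave 0.19 (limma adjusted p 0.136, exact permutation p 0.0286). That value passed the threshold in a fit of the ASO1 and NCA libraries alone (limma adjusted p 0.0194).

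YY1 in IMR32 was at 1602, 1492, 1341 and 1299 with ASO2, at 1769.7, 1590.0, 1483 and 1561 with NCA and at 1761, 1588, 1591 and 1607 with ASO1. The groups overlapped, and 12 of the 16 pairs of an ASO2 and an NCA library had the lower value with ASO2. The difference was -0.16 (SE 0.065) and did not pass the test against NCA (limma adjusted p 0.0629, exact permutation p 0.2). It was called with the libraries rescaled to one total (-0.19, limma adjusted p 0.0109), by edgeR's quasi-likelihood test (adjusted p 0.0481) and with a replicate block (limma adjusted p 0.000651). The other 4 of 7 such alternatives left it uncalled. With libraries left out, it was called in 3 of 9 fits. These were without replicate 1 of every group (-0.17, limma adjusted p 0.00318), without ASO2 replicate 1 (-0.22) and without NCA replicate 3 (-0.20). The other 6 did not call it (limma adjusted p up to 0.213). Against ASO1 it was -0.20 (limma adjusted p 0.0358, exact permutation p 0.0857). That call was lost without any 1 of the 4 ASO1 libraries or without ASO2 replicate 3 or 4 (adjusted p 0.0525 to 0.135). ASO1 against NCA gave 0.03 (limma adjusted p 0.742).

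RPRD2 in IMR32 did not follow the order seen in the other lines. It was at 2117, 1988, 1947 and 1902 with ASO2, at 2012, 1823, 1828 and 1842 with ASO1 and at 2323, 2211, 2175 and 2164 with NCA. Both ASO groups lay below all NCA libraries and overlapped each other. RPRD2 fell with ASO2 (-0.16, SE 0.048, limma adjusted p 0.0158, exact permutation p 0.0286) and with ASO1 (-0.24, limma adjusted p 0.000727, exact permutation p 0.0286). The first call was lost without ASO2 replicate 4 (-0.14, limma adjusted p 0.058). ASO2 against ASO1 gave 0.08, which did not pass the test (limma adjusted p 0.235).

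CCDC62 in IMR32 was at 68.4, 87.6, 71.9 and 80.0 with ASO2, at 85.8, 101, 100.5 and 82.7 with ASO1 and at 79.0, 80.2, 94.5 and 97.4 with NCA. All groups overlapped. The differences were -0.19 for ASO2 against NCA, 0.08 for ASO1 against NCA and -0.26 for ASO2 against ASO1 (SE 0.12 each, limma adjusted p 0.240, 0.679 and 0.119). None was called, which at this depth and spread does not show that the levels were equal.

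Of the 4 genes, 2 (TERF2IP and RPRD2) were thus called lower with ASO2 than with NCA in IMR32, where 14.8% of all tested genes were lower and 32.4% were called in either direction. Between ASO2 and ASO1, 2 (TERF2IP and YY1) were called lower, against 9.17% of all genes lower and 21.9% called. TERF2IP alone did not overlap there, against 21% of genes in either direction and 9.15% lower. Between ASO1 and NCA, RPRD2 was called lower, against 14.4%. Libraries of TERF2IP and RPRD2 did not overlap between ASO2 and NCA, against 30.4% of genes in either direction and 14.1% lower. Nor did they between ASO1 and NCA (TERF2IP higher, RPRD2 lower), against 27.6% in either direction and 14.2% lower. Any gene without overlap gives the exact permutation p of 0.0286. The contrasts against NCA share their control libraries. The size of the ASO2 difference was smaller in IMR32 than in the other lines for TERF2IP, YY1 and RPRD2, and that gap was not tested because it involves the values used for the choice.

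**Figure D2:**
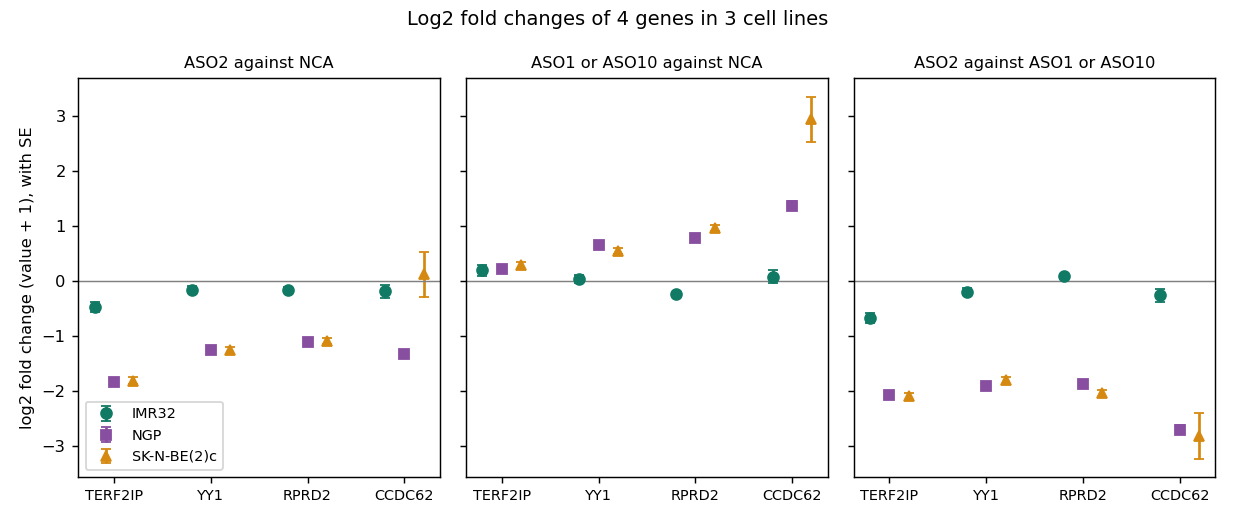
Log2 fold changes on the value + 1 scale (y axis, with SE as bars) of the 4 genes (x axis) for each of the 3 lines, for ASO2 against NCA, for ASO1 (IMR32) or ASO10 (other lines) against NCA, and for ASO2 against ASO1 or ASO10. TERF2IP has the lowest IMR32 value with ASO2 (-0.48), and with ASO10 all 4 genes lie above 0, up to 2.94 for CCDC62 in SK-N-BE(2)c.

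Many other genes had the same description. Among 11594 genes tested in all 3 lines, 166 were called and at least 1 log2 unit lower with ASO2 than with both ASO10 and NCA in each of the lines NGP and SK-N-BE(2)c, and no more than 0.5 log2 unit lower with ASO10 than with NCA. TERF2IP, RPRD2 and YY1 were in that list, at positions 15, 23 and 32 by the mean of ASO2 against ASO10, and CCDC62 was not. Of the 166 genes, 29 were called higher with ASO10 than with NCA in both lines. Line by line, 26.8% (NGP) and 27.8% (SK-N-BE(2)c) of all tested genes were called higher with ASO10. No share of all genes is given for both lines together. The rule also left out genes further below NCA with ASO10, so the 29 are not read as a trait of the list. All 166 genes were then read in IMR32, whose libraries did not enter their choice. With ASO2 against NCA, 120 of the 166 (72.3%) were called lower by limma and 0 higher (133 lower and 0 higher at an unadjusted p under 0.05). edgeR called 120 lower and 0 higher, and DESeq2 116 and 0. Over all 11594 genes, 14.6% were called lower in the same comparison. The median log2 fold change was -0.31 over the list and 0.03 over all genes considered, and 7 of the 166 genes lay above 0. With ASO1 against NCA, 41 (24.7%) were called lower and 8 higher, beside 15.8% lower over all genes considered, and the median was -0.09. Between ASO2 and ASO1, 91 (54.8%) were lower and 2 higher, beside 9.61% lower and 16.5% higher over all genes. With every library brought to one total the list held 232 genes, of which 144 (62.1%) were lower and 4 higher in that comparison, and the shares over all genes became 15.0% lower and 11.8% higher. A looser requirement of 1.5 times in place of 1 log2 unit gave 597 genes, of which 332 (55.6%) were called lower with ASO2 in IMR32.

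Lists built by the same thresholds the other way round were read beside it. In the 88 genes that were lower with ASO10 and not with ASO2 in NGP and SK-N-BE(2)c, 6 (6.82%) were called lower and 25 (28.4%) higher with ASO2 in IMR32, where 14.6% of all genes considered were lower and 23.2% higher. With ASO1, 20 (22.7%) were lower and 9 (10.2%) higher, beside 15.8% and 16.4% of all. In the 49 genes lower with both ASOs, 42 (85.7%) were called lower with ASO2 and 31 (63.3%) with ASO1. These counts are descriptive, and the lists were not compared by a test.

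**Figure D3:**
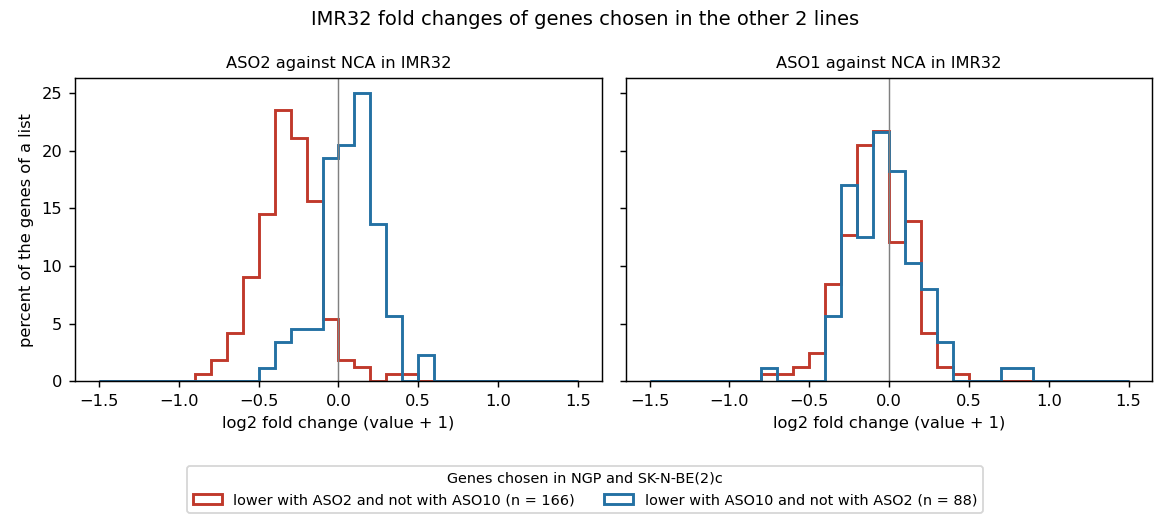
Distribution of log2 fold changes in IMR32 (x axis, value + 1 scale; y axis, percent of the genes of a list in bins of 0.1) for ASO2 against NCA and for ASO1 against NCA, for the 166 genes lower with ASO2 and not with ASO10 and the 88 genes lower with ASO10 and not with ASO2 in NGP and SK-N-BE(2)c. With ASO2 the first list is centred at -0.31 and the second at 0.08, and with ASO1 the centres are -0.09 and -0.04.

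The 6 genes at the head of that list were RAPSN, NOTCH3, SLC8A2, NPAS1, DND1 and ENSG00000261770, whose mean of ASO2 against ASO10 over NGP and SK-N-BE(2)c ran from -5.05 to -2.73. All 6 were above NCA with ASO10 in both lines, which a ranking by ASO2 against ASO10 favours. RAPSN, which anchors acetylcholine receptors at the synapse, was 2.96 and 3.64 above NCA with ASO10 and at -2.35 and -1.14 with ASO2. NOTCH3, a Notch receptor, was at 1.65 and 2.11 with ASO10 and at -2.07 and -2.01 with ASO2. In IMR32, SLC8A2, a sodium-calcium exchanger, fell with ASO2 against NCA (-0.34, limma adjusted p 0.0102), as did ENSG00000261770 (-0.30, limma adjusted p 0.0162). RAPSN, NOTCH3, NPAS1 and DND1 had values of 0.31, -0.10, -0.37 and -0.34 there and did not pass the test. The most extreme genes between ASO2 and ASO10 were thus not those with the most negative values of ASO2 against NCA in IMR32. TERF2IP stood at position 30 of the 166 by the latter. With ASO2 against ASO1 in IMR32, NPAS1 (-0.76, limma adjusted p 0.0479) and ENSG00000261770 (-0.27, limma adjusted p 0.0433) were called lower. RAPSN, NOTCH3, SLC8A2 and DND1 were not called there (0.11, -0.10, -0.19 and -0.12).

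The genes whose levels followed each member most closely were sought over the 18 libraries of those lines, with each line centred on its own mean. For TERF2IP they were VPS72 (Pearson r 0.997), MDN1 and MMS19 among 11594 genes. VPS72 belongs to chromatin complexes that exchange the histone variant H2A.Z, MDN1 is a ribosome assembly ATPase and MMS19 delivers iron-sulfur clusters. For YY1 they were LRIG2 (0.993), NOL8 and LEMD2, and for RPRD2 the ubiquitin ligase HUWE1 (0.994), MAPK8IP3 and CALML4. For CCDC62 they were ENSG00000273058 (0.986), MYLK2 and SUPT6H. All 18 points share the 6 groups of this design, so r is a description of a group pattern.

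The 3 genes most like TERF2IP all belonged to the 166, of which 72.3% were called lower in IMR32. They fell there with ASO2 against NCA, with values of -0.20 for VPS72 (limma adjusted p 0.0105), -0.20 for MDN1 (limma adjusted p 0.000477) and -0.19 for MMS19 (limma adjusted p 0.0133). MDN1 also fell with ASO1 (-0.12, limma adjusted p 0.0292), and its difference between ASO2 and ASO1 did not pass the test (limma adjusted p 0.113). Of those most like YY1, LRIG2 (-0.26) and LEMD2 (-0.22) fell and NOL8 (-0.04) did not pass the test. Of those most like RPRD2, MAPK8IP3 fell (-0.33, limma adjusted p 0.00233), whereas HUWE1 (-0.10) and CALML4 (-0.60) did not pass. None of the 3 most like CCDC62 was called with ASO2 against NCA, with values from 0.05 to 0.13.

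Among 13 tested genes of the list of other shelterin, telomerase and CST components, TERF1 was the only one that fell with ASO2 in all 3 lines. TERF1 encodes the shelterin subunit that binds double-stranded telomeric DNA beside TERF2. It was at 642 ± 48.9 (SD, n = 4) with ASO2, 826 ± 28.9 with ASO1 and 777 ± 10.5 with NCA in IMR32 (log2 fold change of ASO2 against NCA -0.28, limma adjusted p 0.000795). In NGP its mean was 95.0 ± 7.55 with ASO2 (SD, n = 3), against 268 ± 28.5 for ASO10 and 286 ± 9.59 for NCA. In SK-N-BE(2)c it was 78.7 ± 0.927, 218 ± 5.22 and 299 ± 30.3 in that order. The fold changes against NCA with ASO2 were -1.58 and -1.91 (limma adjusted p 1.55e-11 and 3.81e-14). With ASO10 it was at -0.10 in NGP, which did not pass, and fell in SK-N-BE(2)c (-0.45, adjusted p 0.00137 by limma), within the 0.5 log2 unit that the list of 166 genes allowed. TERF1 stood in that list at position 87.

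None of the other 4 shelterin genes was called lower with ASO2 in all 3 lines. TERF2, the partner on which TERF2IP sits, had log2 fold changes of 0.02, -0.02 and 0.13 with ASO2 against NCA (IMR32 first, then NGP, then SK-N-BE(2)c, as in all lists of 3 values from here on) and was not called. TINF2 and POT1 fell in NGP (-0.44 and -0.67) and SK-N-BE(2)c (-0.29 and -0.53) but were not called in IMR32 (0.08 and -0.10). ACD rose in IMR32 (0.37) and SK-N-BE(2)c (0.25, not called after rescaling) and fell in NGP (-0.24). GAR1 and WRAP53, which serve the telomerase RNA, rose with ASO2 in all 3 lines, by 0.31, 0.32 and 0.26 for GAR1 and by 0.36, 0.35 and 0.65 for WRAP53, although GAR1 in SK-N-BE(2)c was not called after rescaling (0.13). WRAP53 also rose with ASO10 (0.20 and 0.36, the NGP value first), whereas GAR1 (-0.05 and -0.25) was called lower with it in SK-N-BE(2)c only. In the whole list, 3 genes rose and 1 fell with ASO2 in IMR32, 2 rose and 4 fell in NGP, and 6 rose and 3 fell in SK-N-BE(2)c. Of all genes, 17.6% rose and 14.8% fell with ASO2 against NCA in IMR32, 30.6% and 28.1% in NGP (58.7% in all), and 33.6% and 33.4% in SK-N-BE(2)c (67% in all). With ASO10, 54.4% were called in NGP (26.8% higher) and 58.9% in SK-N-BE(2)c, and between the ASOs 34.6% were higher with ASO2 in SK-N-BE(2)c. After rescaling, 25.9% rose and 41.4% fell with ASO2 against NCA in SK-N-BE(2)c.

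YY1 relatives and partners gave no common direction. Of 18 tested in IMR32, 5 rose and 1 fell with ASO2 against NCA, and of 19 tested in each of NGP and SK-N-BE(2)c, 5 rose and 8 fell. The close relative YY2 had log2 fold changes of 0.67, 0.87 and 0.00, of which the first 2 passed the test, and ZFP42 did not pass the filter on low values. RYBP, a polycomb protein that binds YY1, rose with ASO2 in all 3 lines (0.28, 0.63 and 0.53), as did the INO80 subunit ACTR8 (0.24, 0.46 and 0.62). MBTD1, a reader of methylated histones, fell in all 3 (-0.19, -1.11 and -1.02, limma adjusted p 0.00973 in IMR32). YY2 rose with ASO10 in both lines treated with it (0.84 and 0.86, the NGP value first). RYBP (0.46 and -0.10) was called higher and MBTD1 (-0.17 and -0.09) lower with ASO10 only in NGP. ACTR8 (-0.02 and 0.17) was not called with it.

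RPRD1A and RPRD1B are the relatives of RPRD2. With ASO2 against NCA, RPRD1A gave 0.00, -0.39 and -0.55 and RPRD1B 0.04, -0.14 and -0.21, called for RPRD1A in the latter 2 and for RPRD1B in SK-N-BE(2)c. Of 14 genes of the list around the polymerase II tail, 8 rose and 2 fell with ASO2 in IMR32, 6 rose and 5 fell in NGP, and 6 rose and 7 fell in SK-N-BE(2)c. RPAP2, a phosphatase of that tail, fell in all 3 lines (-0.13, -0.99 and -1.42). The tail phosphatase gene CTDSP2 rose in all 3 (0.20, 1.15 and 1.20), as did the termination factor gene PCF11 (0.29, 0.55 and 1.04) and SCAF4 (0.18, 0.39 and 0.70). RPAP2 also fell with ASO10 (-0.58 and -0.71, the NGP value first), and CTDSP2 also rose with it (0.78 and 0.85). For PCF11 (-0.12 and -0.25) and SCAF4 (0.02 and 0.15) only the SK-N-BE(2)c value was called, lower for PCF11 and higher for SCAF4.

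Of the list around CCDC62, ESR1 did not pass the filter in any line, and ESR2 passed it only in IMR32. The coactivator genes EP300 (0.41, 1.14 and 1.26) and MED1 (0.43, 0.36 and 0.81) rose with ASO2 in all 3 lines, and NCOA2 (-0.27, -0.57 and -0.53) and NCOA3 (-0.15, -0.55 and -0.62) fell. These changes were not all particular to ASO2. EP300 (1.06 and 0.98, the NGP value first) and MED1 (0.45 and 0.68) also rose with ASO10. NCOA2 (-0.43 and -0.32) also fell with it, and NCOA3 was called lower only in SK-N-BE(2)c (-0.09 and -0.54). With ASO2, 3 of 9 tested rose and 2 fell in IMR32, and 4 of 8 rose and 3 fell in each of the other lines. These 4 lists were chosen by function and none was tested as a set. No share of all genes called in one direction in all 3 lines is given, so such calls are not read as a trait of the lists.

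The nearest tested genes on each side of the 4 loci were read next. KARS1, the lysyl-tRNA synthetase gene, lies head to head with TERF2IP and overlaps it by 858 bases on the other strand. It rose with ASO2 in IMR32 (0.30, limma adjusted p 0.00275) and SK-N-BE(2)c (0.44, adjusted p 1.85e-08 by limma) and was at 0.11 in NGP, which did not pass. Whether counting used strand is not given in the sources used here, so reads from the overlap cannot be assigned. On the other side, CNTNAP4 was tested only in NGP and fell with both ASO2 (-1.64) and ASO10 (-1.12), and MON1B, 1428962 bases away, was not called with ASO2 in IMR32 (-0.08) or NGP (0.04) and was called higher in SK-N-BE(2)c (0.22), but not after rescaling (0.08). ADAT1, beyond KARS1, was not called in any line, nor were SYCE1L in IMR32 and WWOX in SK-N-BE(2)c.

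The gene before YY1 on the same strand is EVL, an actin regulator gene, 94061 bases away in GRCh38. EVL fell with ASO2 against NCA in IMR32 (-0.35, limma adjusted p 2.47e-06), NGP (-1.02, limma adjusted p 1.37e-12) and SK-N-BE(2)c (-1.19, limma adjusted p 1e-14). With ASO10 it was at -0.08 and -0.04 in NGP and SK-N-BE(2)c and did not pass the test, and with ASO1 it fell in IMR32 (-0.37, limma adjusted p 8.43e-07). On the other side of YY1, SLC25A29 was not called with ASO2 in any line (0.06, 0.06 and 0.04) and fell with ASO10 in both NGP (-0.31) and the other line treated with it (-0.50). WARS1, the tryptophanyl-tRNA synthetase gene 50995 bases after YY1, was lower with ASO2 (-0.24, limma adjusted p 0.000655) and higher with ASO10 (0.71, limma adjusted p 2.44e-11) in SK-N-BE(2)c, the same signs as YY1. In NGP it rose with ASO2 (0.24, limma adjusted p 0.004) and was at 0.06 with ASO10. On the EVL side, EML1 fell with ASO2 in SK-N-BE(2)c (-0.60) and was at -0.10 with ASO10, and CCDC85C was not called in NGP. ENSG00000258982 and ENSG00000258904, which overlap YY1 and were tested in IMR32, were not called there with either ASO against NCA.

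None of PRPF3, TARS2 and ECM1, the neighbours of RPRD2 tested in all 3 lines, was called lower with ASO2. TARS2 and ECM1, which follow it on the same strand, rose with ASO2 and with the other ASO in all 3 lines. ECM1, which encodes an extracellular matrix protein, rose by 1.38 with ASO2 and 2.10 with ASO10 in NGP, and by 2.30 and 3.56 in SK-N-BE(2)c. PRPF3 before it rose with ASO2 in all 3 lines (0.39, 0.16 and 0.40), but in NGP not after rescaling (0.09). Further out, CIART rose with ASO2 in NGP (0.65) and SK-N-BE(2)c (1.10), and MRPS21 was not called in IMR32.

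Beside CCDC62, DENR, which lies 3262 bases before it on the same strand, fell with ASO2 in NGP (-0.65) and SK-N-BE(2)c (-0.75) and was at 0.01 in IMR32. With ASO10 it was at -0.11 in each of the former and did not pass, except in NGP after rescaling (-0.12, limma adjusted p 0.0458). HIP1R, 6924 bases after it, rose with both ASOs in NGP (0.50 and 0.38) and with ASO2 in IMR32 (0.18, limma adjusted p 0.047, lost after rescaling). In SK-N-BE(2)c it rose with ASO10 (1.21, adjusted p 3.99e-06 by limma) and was at 0.01 with ASO2, which did not pass. The next gene in NGP, ENSG00000256152, rose by 3.19 with ASO10 and by 0.71 with ASO2. VPS37B after HIP1R, tested as a neighbour in SK-N-BE(2)c, fell with ASO2 (-0.76) and was at 0.02 with ASO10, and KNTC1 before DENR fell with both (-0.86 and -0.26). The small RNA listed as Y_RNA rose with ASO2 in NGP (0.82), and the second genes on either side in IMR32 were not called.

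**Figure D4:**
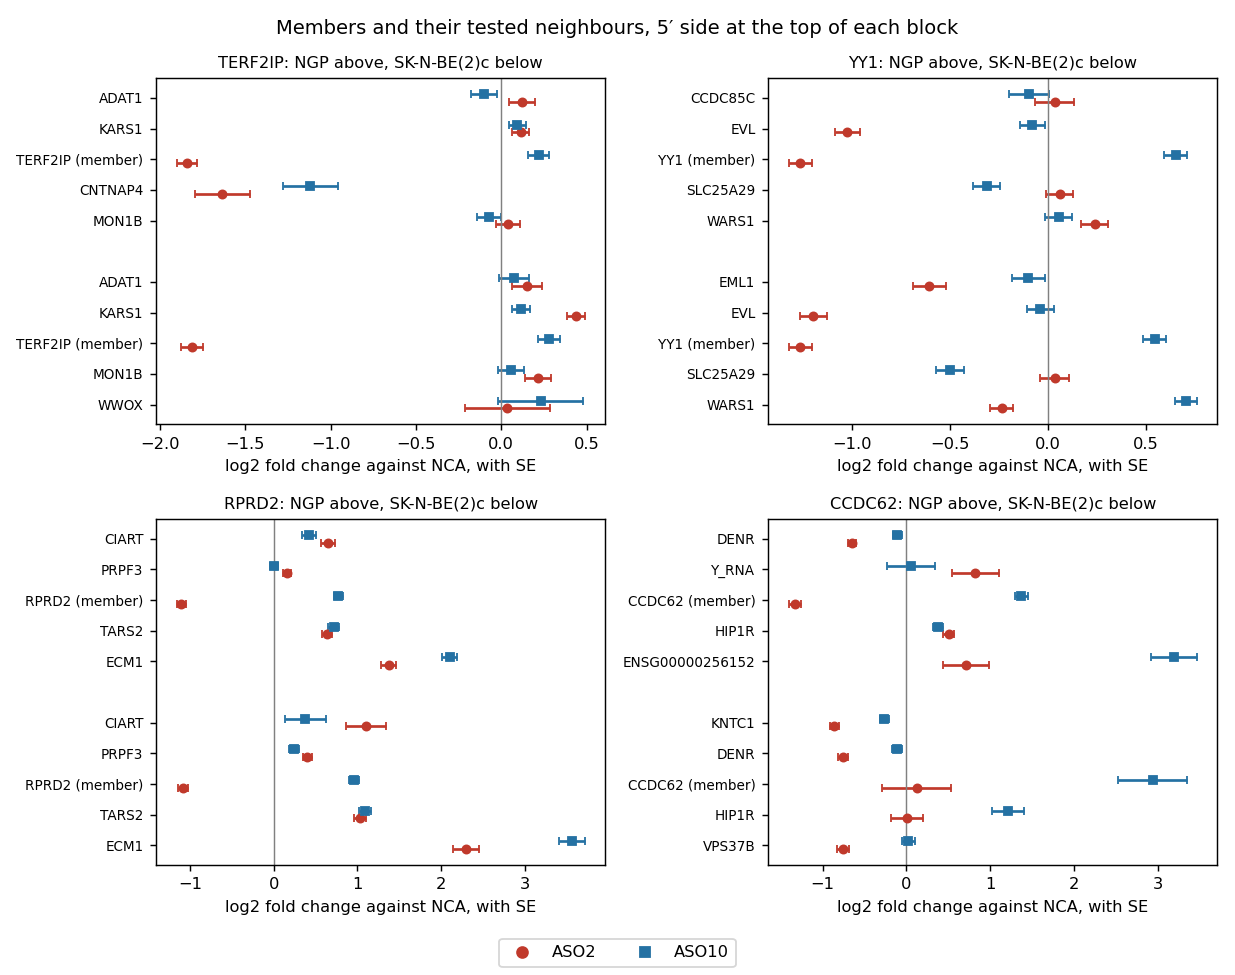
Log2 fold changes against NCA (x axis, with SE as bars) with ASO2 and ASO10 for each of the 4 genes and its 2 nearest tested genes on each side (y axis, the 5′ side on top), in NGP (upper block) and SK-N-BE(2)c (lower block). With ASO2, RPRD2 lies below its neighbours, TERF2IP lies below KARS1 but near CNTNAP4 in NGP (-1.64), EVL lies near YY1 with ASO2 at -1.02 and -1.19, and HIP1R and ENSG00000256152 lie on the same side as CCDC62 with ASO10.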

How the data were processed

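RNA of 30 libraries from 3 cell lines was sequenced, and libraries were grouped by their titles. The labels' protocols name a stranded total RNA kit and a stranded mRNA kit without saying which library had which. FastQC 0.11.8, cutadapt 1.18, STAR 2.6.0, HTSeq 0.6.1 and DESeq2 1.42.0, and the builds hg19 and GRCh37, are named in the submitters' processing notes, with no role given. The authors deposited normalized counts, one table per line, which are a signal scaled by one size factor per library: dividing by each library's smallest step gave values within 0.01 of a whole read (wider in proportion for highly expressed genes) for 100% of values. In 1 SK-N-BE(2)c control library that step is so near 1 that its reads are not claimed as recovered.

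Log2(value + 1) was fitted with limma 3.58.1 in R 4.3.3, as a mean per group over all libraries of a line with a mean-variance trend, for genes whose mean over those libraries was 10 or more. Benjamini-Hochberg adjusted p-values under 0.05, over all genes tested, were called. The log2 scale with a pseudocount of 1 understates changes of low genes. In the IMR32 table, 174 entries without a gene ID (0.172% of values) were left out. Exact two-sided permutation tests over libraries were added for the 4 genes in IMR32. The reads of IMR32 and NGP were also tested with edgeR 4.0.16 and DESeq2 1.42.0. In SK-N-BE(2)c this was not run, because of that library. Alternatives were a pseudocount of 8, no filter, rescaling, a replicate block, fits of 2 groups, leaving out each library, and a threshold of 1.5 times. The limma fit was tested on simulated data.

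The 4 genes and the lists were chosen with earlier results of these data known. Genes named were the 4 genes, YY2, ZFP42, RPRD1A, RPRD1B and the other 5 shelterin genes, up to 4 genes per list called in one direction with ASO2 against NCA in all 3 lines, the 6 strongest genes of the same description, the 3 genes most like each member, and the 2 nearest tested genes on each side. The lists held 14 shelterin, telomerase and CST genes, 20 YY1 relatives and partners, 14 genes around the polymerase II tail and 10 around CCDC62. Gene order, strand and length came from GENCODE release 29 and promoters from RefSeq (GRCh38.p14), all 4 genes matched, and no coordinates were taken from the tables. Control columns of NGP and SK-N-BE(2)c are spelled differently for replicates 2 and 3 than for replicate 1, but their titles name 1 control group.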

Additional observations from a re-analysis of the deposited data

Results flagged for a closer look

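In IMR32, 12 groups of 4 libraries (4 genes by 3 treatments) were examined for a library far from its group, and 2 had one by Dixon's criterion, which chance meets in about 1 of 20 groups. RPRD2 was at 2012 in ASO1 replicate 1, with the next library at 1842 (gap over range 0.898). YY1 was at 1761 in the same library, with the next at 1607 (0.887). Replicate 1 was the highest library in 9 of the 9 groups of TERF2IP, YY1 and RPRD2 in IMR32, and in 8 of 9 after rescaling to one total. For CCDC62 the highest was replicate 2 with ASO2 and with ASO1, and replicate 4 with NCA. No share of all genes with replicate 1 highest is given. The normalized total of replicate 1 was also the highest of its group, at 12220100 against 11711400 to 11844300 with ASO2, 11870900 against 11253500 to 11430100 with ASO1 and 11855000 against 11497100 to 11587500 with NCA. What sets these libraries apart was not tested. Without replicate 1 of all 3 groups, an alternative added after the values were seen, TERF2IP with ASO2 against NCA was at -0.57, YY1 at -0.17 and RPRD2 at -0.17, and all 3 were called (limma adjusted p 2.49e-09, 0.00318 and 0.000611). TERF2IP with ASO1 against NCA (0.18, limma adjusted p 0.0258) became called as well.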

How the results depend on the processing

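TERF2IP with ASO2 against NCA and against ASO1 and RPRD2 with ASO1 against NCA kept their direction and call in IMR32 under every alternative run (pseudocount 8, no filter, rescaling, replicate block, edgeR, DESeq2, 2 groups only, each library left out, replicate 1 left out). YY1 with ASO2 against NCA became called after rescaling (-0.19) and by edgeR (-0.16). With libraries left out it ranged from -0.22 to -0.11 and was called in 3 of 9 fits, but not in the other 6. RPRD2 with ASO2 against NCA ranged from -0.19 to -0.14 with a library left out. TERF2IP with ASO1 against NCA became called in a fit of 2 groups only (0.19) and without replicate 1 of every group (0.18, limma adjusted p 0.0258), and ranged from 0.16 to 0.22 with a library left out. YY1 with ASO1 against NCA turned to -0.0018 without ASO1 replicate 1 and to -0.0020 without NCA replicate 3, and reached 0.083. YY1 with ASO2 against ASO1 lost its call with no filter (-0.20, more genes tested) and ranged from -0.25 to -0.15 with a library left out. The list of genes with the same description grew from 166 to 597 at 1.5 times and to 232 after rescaling, and its genes called lower with ASO2 in IMR32 were 107 to 135 with the 166 genes held fixed. Rescaling lowered the median of all genes in SK-N-BE(2)c by a shift of -0.14 for ASO2 against NCA and -0.11 for ASO2 against ASO10, and TERF2IP, YY1 and RPRD2 with ASO2 against NCA moved with it to -1.95, -1.40 and -1.22. It moved the share of calls that were higher from 50.2% to 38.4% and from 52.9% to 42.3% in these comparisons, and from 58.2% to 40.2% for ASO2 against ASO1 in IMR32. Except where a cause is given, the cause was not tested. Replicate numbers were checked for pairing: in no pair of groups did the deviations of same-numbered libraries correlate above 0.1 for every number (for ASO1 and NCA in IMR32 0.318, 0.055, 0.116 and 0.055). Some numbers did correlate in all 3 IMR32 pairs of groups. These were replicate 1 (0.261, 0.318 and 0.332) and, less so, replicate 3 (0.112, 0.116 and 0.163). Some of the spread in IMR32 was thus shared by replicate number, and the main fit did not take it into account. With the replicate block, YY1 with ASO2 against NCA (-0.16, limma adjusted p 0.000651) and TERF2IP with ASO1 against NCA (0.19, limma adjusted p 0.0116) became called, and no other call of the 4 genes in IMR32 changed. Among the recomputed values, 646 kept their direction and side of the threshold or stayed within 1.5 times, 39 counts or fold changes moved further, 9 gained and 8 lost a call, and 2 reversed. edgeR and DESeq2 were not run in SK-N-BE(2)c. Depth limited CCDC62 in SK-N-BE(2)c, where NCA and ASO2 libraries held 7.20 normalized counts or fewer.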
